A study of Mus musculus with 18 samples.

Results

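Leukocyte adhesion molecules were followed at the RNA level in murine renal proximal tubulo-interstitial epithelial cells (RPTEC), a primary kidney cell culture from C57BL/6 mice obtained from a commercial source. The set comprised 9 genes chosen by name, Vcam1, Icam1, Icam2, Madcam1, Alcam, Cd44, Cd47, F11r and Jam2, of 36528 genes in the count tables. RNASeq was available for 18 samples in 6 groups of 3: DMSO vehicle, 100 ng/mL recombinant mouse TWEAK, or TWEAK together with 3 μM NIK SMI1, each for 6 h and for 24 h. TWEAK is a TNF family cytokine, and NIK SMI1 is a small molecule inhibitor of the NF-κB-inducing kinase NIK. All groups were wild-type cells of the one strain, and cells given NIK SMI1 without TWEAK were not analysed here. The labels name no separate animals or cell preparations, so every p-value measures only the spread between these cultured samples.

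Leukocytes leave the blood by rolling, arresting and crawling along cells that display adhesion molecules, and arrest depends mainly on leukocyte integrins that bind immunoglobulin-superfamily ligands. Vcam1 and Madcam1 are ligands of alpha-4 integrins, whereas Icam1 and Icam2 are ligands of the beta-2 integrin LFA-1. F11r (JAM-A) and Jam2 (JAM-B) are junctional adhesion molecules that also bind integrins, Alcam binds CD6 on T cells, Cd44 is the main receptor for hyaluronan, and Cd47 is the ligand of SIRPα and a receptor for thrombospondin. In inflamed kidneys, tubular epithelium is known to display VCAM-1 and ICAM-1, and both genes are textbook targets of NF-κB.

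Depth ranged from 18040966 to 51956444 counted reads per sample, with a median of 35374254. Levels are given as CPM, the read count scaled to a common library size with TMM factors, and levels of different genes are compared only as RPKM, which also divides by exonic length. The 5 epithelial marker genes (Epcam, Krt8, Krt18, Cdh1, Cdh16) summed to between 6954 and 9333 CPM in every sample. Of 8 proximal tubule markers only Cubn, Slc5a2 and Havcr1 had a mean over 1 CPM, and the defining phosphate transporter Slc34a1 was at most at 0.0431 CPM, so the tubular segment in the label was not borne out by most of its markers. The 7 endothelial markers together never exceeded 0.935 CPM. Of the 7 leukocyte markers only Csf1r had a mean over 1 CPM, and the pan-leukocyte gene Ptprc averaged at most 0.145 CPM in any group. The summed leukocyte markers, nearly all Csf1r, were at 7.93 to 8.51 CPM in vehicle and 11.2 to 12.3 CPM with TWEAK at 24 h, and the endothelial sum was at 0.238 to 0.645 and 0.690 to 0.935 CPM in the same groups. The part of either in the results at 24 h was not tested. In bulk RNA, fewer cells of a type and less RNA per cell cannot be told apart. RNA of pancreatic islet genes, which renal cells should lack, stood between 10.9 and 24.5 CPM in 13 samples. It was 0.208 and 3.39 CPM in TWEAK samples 2 and 3 at 24 h and at most 0.0633 CPM in the 3 samples with NIK SMI1 at 24 h. The effect of the inhibitor at 24 h is therefore also given without the TWEAK samples that held more than 1 CPM of it. Without those samples 1 TWEAK sample was left at 24 h, at 0.208 CPM, whereas vehicle at 24 h held 11.3 to 15.3 CPM. Leaving them out therefore does not even out islet RNA between TWEAK and vehicle, and cannot show its part there. The TWEAK log2 fold change at 24 h was then 4.50 for Vcam1, 3.42 for Icam1, 1.57 for Cd47 and 0.79 for Cd44. It was 0.34 for F11r, -0.52 for Jam2 and -0.94 for Alcam. The TWEAK effect over time without those samples is given at the end for Icam1, with the same limit. The part of islet RNA in the remaining results was not tested.

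In RPTEC, TWEAK raised the adhesion genes to very different degrees, and the strongest response was that of Vcam1, which rose 18.5-fold at 6 h and 23.3-fold at 24 h. Icam1 rose 6.05-fold and 10.6-fold, Cd47 2.24-fold and 2.90-fold, and the abundant genes Cd44 and F11r rose by less than 2-fold. Jam2 fell at both time points, Alcam fell at 24 h, and Icam2 and Madcam1 were not expressed at a level that could be tested. NIK SMI1 lowered Vcam1, Icam1, Cd44, Cd47 and F11r at both time points, yet all 5 stayed above vehicle. These genes were ordered below by the role of their products.

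The upstream sequences of Icam1 and Madcam1 are shown because, of the windows searched, only theirs held a match to the κB consensus or to GGAANTTCC. They are therefore not typical of the set. Both genes encode integrin ligands of the same family, while only Icam1 had enough reads in RPTEC to be tested. The 250 bases before the RefSeq start site were read on the plus strand of GRCm38.p6, at chr9:21015690-21015939 for Icam1 and chr10:79664309-79664558 for Madcam1. Capitals mark matches on either strand to the decameric κB consensus or to the palindromic letters GGAANTTCC, a form bound by RelA in known targets.

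Icam1: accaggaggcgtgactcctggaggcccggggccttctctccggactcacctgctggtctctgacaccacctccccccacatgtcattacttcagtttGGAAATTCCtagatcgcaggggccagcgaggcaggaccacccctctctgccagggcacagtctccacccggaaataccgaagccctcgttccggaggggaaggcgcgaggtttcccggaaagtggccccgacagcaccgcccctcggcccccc

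Madcam1: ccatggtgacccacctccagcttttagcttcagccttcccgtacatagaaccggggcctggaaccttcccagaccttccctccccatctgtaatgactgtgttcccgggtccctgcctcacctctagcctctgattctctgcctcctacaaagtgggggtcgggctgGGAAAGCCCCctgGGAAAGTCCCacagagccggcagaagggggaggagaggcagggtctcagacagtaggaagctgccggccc

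The window of Icam1 held 1 GGAANTTCC match, starting at position -153 from the start site, and no match to the κB consensus. Madcam1 held 2 κB consensus matches, the first starting at position -83, although its RNA was close to absent. Windows were available for 6 of the 9 genes. None was available for Vcam1, Icam2 and Jam2, so these were not searched and nothing can be said of their matches. The windows of Alcam, Cd44 and Cd47 held neither form nor the AP-1 letters TGAGTCA, and that of F11r held 1 TGAGTCA match at position -109. Over 32536 RefSeq windows of the same length, 3.92% held the κB consensus, 0.811% held GGAANTTCC and 4.45% held TGAGTCA. A match describes letters only, and none of these windows was tested for binding.

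**Figure D1:**
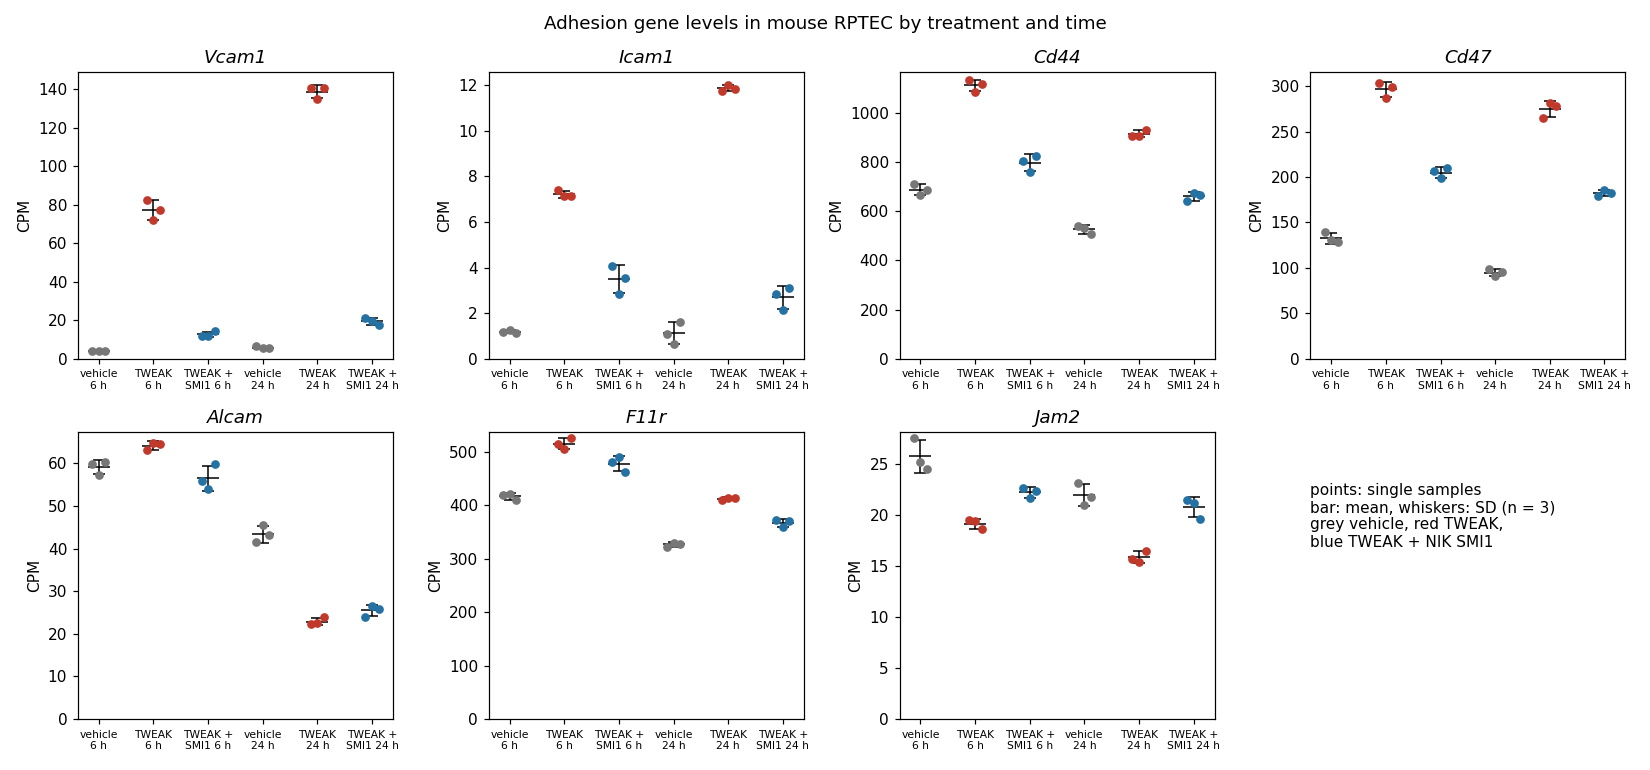
CPM of the 7 testable adhesion genes in each of the 18 samples, with 1 panel per gene and a linear axis from 0. Points are samples (grey vehicle, red TWEAK, blue TWEAK with NIK SMI1), and bars with whiskers are the mean and SD of 3 samples; Vcam1 reaches 134.8 to 140.8 CPM with TWEAK at 24 h against 5.45 to 6.39 CPM in vehicle.

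Vcam1 (GeneID 22329; GRCm38 chr3:116109949-116129688, minus strand) encodes the vascular cell adhesion molecule that captures leukocytes carrying alpha-4 integrins. At 6 h its level was 4.13, 4.05 and 4.31 CPM in vehicle, 82.6, 72.3 and 77.2 CPM with TWEAK, and 11.7, 12.1 and 14.2 CPM with TWEAK and NIK SMI1. At 24 h the levels were 6.39, 5.45 and 5.66 CPM in vehicle, 140.8, 134.8 and 140.7 CPM with TWEAK, and 21.3, 19.6 and 17.7 CPM with the inhibitor. The 3 treatments did not overlap at either time point, with the inhibitor samples lying between vehicle and TWEAK and closer to vehicle. The TWEAK log2 fold change was 4.21 (SE 0.076, adjusted p = 2.42e-24) at 6 h and 4.54 (SE 0.075, adjusted p = 2e-25) at 24 h. NIK SMI1 changed Vcam1 by -2.63 (SE 0.069, adjusted p = 8.18e-20) at 6 h and by -2.82 (SE 0.061, adjusted p = 5.54e-22) at 24 h on the log2 scale. Against vehicle the inhibited cells still held 2.99-fold more Vcam1 RNA at 6 h (adjusted p = 2.49e-12) and 3.30-fold more at 24 h (adjusted p = 2.15e-14). An antisense gene, Gm43109, overlaps the span of Vcam1, and the library kit did not mark strand, so reads from any shared exons cannot be told apart. Whether exons are shared was not examined. The spans of Cd44 and Jam2 overlap a small nuclear RNA gene (Gm23731) and a ribosomal RNA gene (Gm25908), respectively.

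Icam1 (GeneID 15894; chr9:21015985-21028817, plus strand) encodes the intercellular adhesion molecule bound by LFA-1 and Mac-1, and its level in RPTEC was low throughout. Vehicle samples held 1.17, 1.28 and 1.13 CPM at 6 h, against 7.39, 7.13 and 7.15 CPM with TWEAK and 4.07, 2.84 and 3.55 CPM with TWEAK and NIK SMI1. At 24 h vehicle held 1.10, 0.645 and 1.62 CPM, TWEAK 11.8, 12.0 and 11.9 CPM, and TWEAK with the inhibitor 2.86, 2.13 and 3.10 CPM. No treatment overlapped another at either time point, although the vehicle samples at 24 h, resting on 13 to 48 reads each, were widely spread. TWEAK raised Icam1 by 2.60 (SE 0.16, adjusted p = 5.59e-13) at 6 h and by 3.41 (SE 0.17, adjusted p = 2.64e-15) at 24 h on the log2 scale. The change with NIK SMI1 was -1.03 (SE 0.14, adjusted p = 8.7e-06) at 6 h and -2.14 (SE 0.14, adjusted p = 3.18e-12) at 24 h. Icam1 in the inhibited cells remained 2.96-fold above vehicle at 6 h (adjusted p = 6.14e-07) and 2.41-fold above it at 24 h (adjusted p = 2.59e-05). The antisense gene Gm47079 overlaps the span of Icam1, and reads from any shared exons could not be separated either.

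Icam2 (GeneID 15896; chr11:106377656-106388075, minus strand), a constitutive LFA-1 ligand of endothelium, had 4 reads in TWEAK sample 1 at 6 h and 0 reads in the other 17 samples. A count of 0 allows up to 3 reads, which corresponded to between 0.0577 and 0.166 CPM depending on the depth of the sample. Madcam1 (GeneID 17123; chr10:79664559-79668537, plus strand), the mucosal addressin of gut venules, had between 0 and 5 reads per sample. Its highest level was 0.117 CPM in TWEAK sample 3 at 24 h, followed by 0.0822 CPM in TWEAK sample 3 at 6 h. Vehicle sample 1 at 6 h held 0.0671 CPM. At 24 h TWEAK sample 2 held 0.0623 CPM and TWEAK sample 1 had 0 reads. Neither gene passed the filter of more than 10 reads in at least 4 samples, and no difference between treatments was detectable at this depth. This limit covers counting error only.

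F11r (GeneID 16456; chr1:171437535-171464603, plus strand), the tight junction molecule JAM-A and a further LFA-1 ligand, was abundant and moved little. It stood at 419, 422 and 410 CPM in vehicle, 515, 505 and 527 CPM with TWEAK, and 481, 491 and 463 CPM with the inhibitor at 6 h. The levels at 24 h were 322, 330 and 328 CPM in vehicle, 410, 413 and 415 CPM with TWEAK, and 373, 359 and 371 CPM with the inhibitor. The treatments were again ordered vehicle, inhibitor, TWEAK without overlap at both time points. TWEAK raised F11r by 0.31 (SE 0.029, adjusted p = 3.31e-09) at 6 h and by 0.34 (SE 0.03, adjusted p = 4.28e-10) at 24 h on the log2 scale. The inhibitor changed it by -0.11 (SE 0.029, adjusted p = 0.0147) at 6 h and by -0.17 (SE 0.029, adjusted p = 0.000116) at 24 h. The call at 6 h was lost without TWEAK sample 3 (adjusted p = 0.0819), without inhibitor sample 3 (0.0736) and with the 6 h samples fitted alone (0.0532).

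Jam2 (GeneID 67374; chr16:84774123-84825928, plus strand), which encodes JAM-B, went the other way. Its levels at 6 h were 27.5, 25.2 and 24.5 CPM in vehicle, 19.5, 19.4 and 18.6 CPM with TWEAK, and 22.7, 21.7 and 22.3 CPM with the inhibitor. At 24 h they were 23.1, 21.0 and 21.8 CPM in vehicle, 15.7, 15.4 and 16.5 CPM with TWEAK, and 21.4, 21.2 and 19.7 CPM with the inhibitor. TWEAK samples were the lowest at both time points, and the inhibitor samples overlapped vehicle only at 24 h. Jam2 fell with TWEAK, with log2 fold changes of -0.42 (SE 0.057, adjusted p = 1.62e-06) at 6 h and -0.48 (SE 0.062, adjusted p = 4.36e-07) at 24 h. NIK SMI1 raised it above TWEAK by 0.21 (SE 0.06, adjusted p = 0.0194) at 6 h and by 0.39 (SE 0.06, adjusted p = 1.77e-05) at 24 h on the log2 scale. At 24 h the inhibited cells did not pass the test against vehicle (log2 fold change -0.09, 95% interval -0.21 to 0.04, adjusted p = 0.383). The rise with the inhibitor at 6 h was lost without TWEAK sample 3 (adjusted p = 0.0775) or inhibitor sample 1 (0.0887).

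Alcam (GeneID 11658; chr16:52248996-52454074, minus strand), the CD6 ligand, had TWEAK samples above vehicle at 6 h and below it at 24 h. At 6 h it stood at 59.9, 57.3 and 60.2 CPM in vehicle, 63.0, 64.9 and 64.6 CPM with TWEAK, and 55.8, 53.9 and 59.7 CPM with the inhibitor. The corresponding levels at 24 h were 41.5, 45.5 and 43.1 CPM, 22.3, 22.4 and 23.9 CPM, and 23.9, 26.6 and 25.9 CPM. The TWEAK and vehicle samples did not overlap at either time point, and the inhibitor samples overlapped vehicle at 6 h. At 24 h the lowest inhibitor sample (23.91 CPM) was level with the highest TWEAK sample (23.9 CPM). On the log2 scale TWEAK changed Alcam by 0.12 at 6 h (SE 0.045, 95% interval 0.02 to 0.21, adjusted p = 0.0644), which missed the threshold, and by -0.91 at 24 h (SE 0.052, adjusted p = 6.12e-14). The difference between both effects was -1.03 (SE 0.069, adjusted p = 3.52e-11). NIK SMI1 changed Alcam by -0.19 at 6 h (SE 0.047, adjusted p = 0.00819) and by 0.15 at 24 h (SE 0.053, 95% interval 0.04 to 0.26, adjusted p = 0.0513). The first of these was lost without inhibitor sample 2 (adjusted p = 0.0704). At 24 h Alcam in the inhibited cells stayed 1.70-fold below vehicle (log2 difference -0.77, SE 0.052, adjusted p = 9.43e-12), with no overlap.

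Cd44 (GeneID 12505; chr2:102811141-102901665, minus strand), the hyaluronan receptor, held 709, 667 and 686 CPM in vehicle at 6 h, 1132, 1086 and 1115 CPM with TWEAK, and 805, 759 and 825 CPM with TWEAK and NIK SMI1. At 24 h it held 539, 532 and 507 CPM, 906, 906 and 930 CPM, and 639, 675 and 667 CPM, respectively. The inhibitor samples lay between the other treatments without overlap at both time points. TWEAK raised Cd44 by 0.69 (SE 0.034, adjusted p = 5.41e-15) at 6 h and by 0.80 (SE 0.034, adjusted p = 1.44e-16) at 24 h on the log2 scale. The inhibitor changed it by -0.48 (SE 0.034, adjusted p = 7.72e-11) and -0.47 (SE 0.034, adjusted p = 4.31e-11). Neither effect of time passed the test, with a difference between the TWEAK effects of 0.11 (95% interval 0.01 to 0.20, adjusted p = 0.201) and between the inhibitor effects of 0.01 (95% interval -0.09 to 0.11, adjusted p = 0.938).

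Cd47 (GeneID 16423; chr16:49800533-49915010, plus strand), which signals against phagocytosis through SIRPα, stood at 139.6, 130.4 and 128.0 CPM in vehicle at 6 h, 303.1, 286.9 and 299.6 CPM with TWEAK, and 206.3, 198.4 and 209.7 CPM with the inhibitor. At 24 h the levels were 98.6, 90.7 and 95.3 CPM, 265.4, 281.9 and 278.2 CPM, and 179.4, 185.4 and 182.5 CPM. Every inhibitor sample lay between the vehicle and TWEAK samples. The TWEAK log2 fold change was 1.16 (SE 0.038, adjusted p = 6.94e-19) at 6 h and 1.53 (SE 0.04, adjusted p = 2.25e-21) at 24 h. With NIK SMI1 it changed by -0.53 (SE 0.038, adjusted p = 7.17e-11) at 6 h and -0.59 (SE 0.037, adjusted p = 2.79e-12) at 24 h. These are 1.45-fold and 1.51-fold decreases, just outside and just inside the 1.5-fold cut-off that the study used for inhibition.

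**Figure D2:**
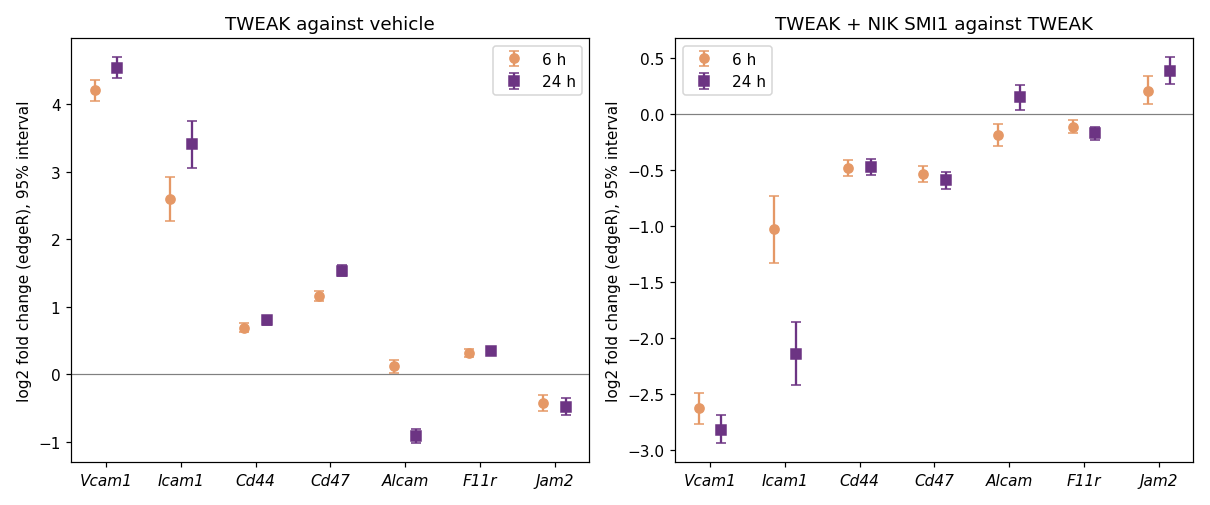
Log2 fold changes of the 7 tested adhesion genes from edgeR, for TWEAK against vehicle (left) and TWEAK with NIK SMI1 against TWEAK (right), at 6 h (circles) and 24 h (squares). Whiskers are 95% intervals; Vcam1 lies at 4.21 and 4.54 on the left and at -2.63 and -2.82 on the right, while Alcam is at 0.12 and -0.91 on the left.

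Of the 7 tested adhesion genes, 5 were higher and 1 was lower with TWEAK at 6 h, where 11.7% of the 15521 tested genes were higher and 12.0% lower. At 24 h, 5 were higher and 2 lower, against 18.3% and 20.7% of all tested genes. The 3 genes that rose more than 2-fold at each time point were Vcam1, Icam1 and Cd47, where 1.75% of tested genes did so at 6 h and 2.34% at 24 h. The genes were chosen with earlier results of these samples known, so their passing is not independent evidence. With NIK SMI1 against TWEAK, 6 were lower and 1 higher at 6 h, beside 5.70% and 5.34% of tested genes, and 5 were lower and 1 higher at 24 h, beside 8.29% and 10.2%. Decreases of more than 1.5-fold were seen for Vcam1 and Icam1 at 6 h and for Vcam1, Icam1 and Cd47 at 24 h, beside 1.10% and 1.75% of tested genes. The inhibited cells differed from vehicle in 5 genes that were higher and 1 that was lower at each time point, beside 7.24% and 6.70% of tested genes at 6 h and 8.07% and 9.83% at 24 h. The gene below vehicle was Jam2 at 6 h and Alcam at 24 h, and the Jam2 call was lost without vehicle sample 1 (adjusted p = 0.121) or inhibitor sample 2 (0.0865). Leaving out TWEAK samples 1 and 3 at 24 h, those with more than 1 CPM of islet RNA, left 1 TWEAK sample at that time, which was assumed to vary like the other groups. The log2 change with the inhibitor at 24 h was then -2.78 for Vcam1, -2.16 for Icam1, -0.63 for Cd47 and -0.46 for Cd44.

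The share of the TWEAK rise in CPM that was left in the presence of NIK SMI1 differed from gene to gene. For Vcam1 it was 10.3%, 10.8% and 13.7% in the 3 samples at 6 h (mean 11.6% ± 1.9, SD, n = 3) and 11.6%, 10.4% and 8.94% at 24 h (10.3% ± 1.4). For Icam1 it was 47.7%, 27.3% and 39.1% at 6 h (38.0% ± 10) and 16.2%, 9.35% and 18.4% at 24 h (14.6% ± 4.7), with no overlap between the time points. Cd44 kept 25.7% ± 8.0 of its rise at 6 h and 34.7% ± 4.9 at 24 h, Cd47 44.0% ± 3.5 and 48.6% ± 1.7, and F11r 62.0% ± 15 and 47.4% ± 8.9. At 24 h every Vcam1 and Icam1 sample was below 20% and every Cd44, Cd47 and F11r sample was above it. These shares depended on the scale. On log2(CPM + 0.1) Vcam1 kept 37.7% and Icam1 58.3% at 6 h, where Cd47 kept 54.0%, so that Icam1 passed Cd47. At 24 h the log2 shares were 38.0% for Vcam1, 37.3% for Icam1, 41.2% for Cd44 and 61.4% for Cd47, so that the distance of Vcam1 and Icam1 from Cd44 was small.

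**Figure D3:**
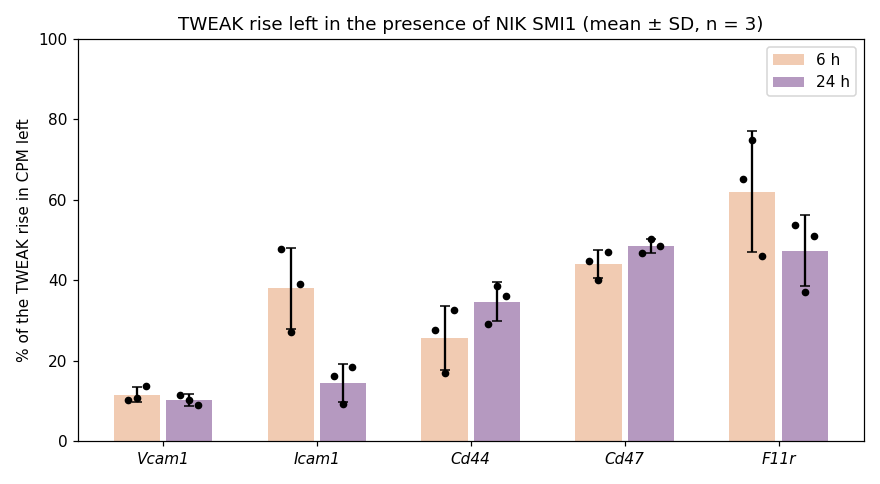
Share of the TWEAK rise in CPM left with NIK SMI1 for the 5 adhesion genes that rose at both time points, at 6 h (orange) and 24 h (purple). Bars are means with SD, points are the 3 inhibitor samples; Vcam1 keeps 11.6% and 10.3%, while Cd47 keeps 44.0% and 48.6%.

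The size of the TWEAK effect at 24 h was compared with that at 6 h, gene by gene, in the same fit. Cd47 (difference 0.37, SE 0.054, adjusted p = 2.39e-05) and Icam1 (0.81, SE 0.26, adjusted p = 0.0487) rose more at 24 h and Alcam fell, 2 higher and 1 lower beside 3.24% and 5.67% of tested genes. The Icam1 call was weak: it was lost in 13 of the fits that left out 1 sample, with an adjusted p of 0.15 without vehicle sample 2 at 24 h, and with limma on log2(RPKM + 0.1) (adjusted p = 0.0771). For Vcam1 the difference was 0.33 (SE 0.12, 95% interval 0.08 to 0.58, adjusted p = 0.0933), which missed the threshold. It passed with limma on log2(RPKM + 0.1) (0.41, adjusted p = 0.0387) and in edgeR without a filter on low counts (adjusted p = 0.0468). The inhibitor lowered Icam1 more at 24 h than at 6 h, with a difference of -1.11 (SE 0.2, adjusted p = 0.00139), whereas that of Vcam1 was -0.19 (95% interval -0.38 to 0.01, adjusted p = 0.288). Alcam differed by 0.34 in the opposite direction (SE 0.071, adjusted p = 0.00556), which made 1 gene higher and 1 lower beside 3.11% and 1.62% of tested genes. With limma on log2(RPKM + 0.1) the Icam1 difference missed the threshold (adjusted p = 0.0591).

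Vcam1 was higher relative to Icam1 in every TWEAK sample than in any vehicle sample of the same time point. Within samples, the ratio of Vcam1 RPKM to Icam1 RPKM was 2.63, 2.37 and 2.85 in vehicle at 6 h and 8.35, 7.59 and 8.06 with TWEAK. With the inhibitor it was 2.15, 3.18 and 2.99, which overlapped vehicle and lay below every TWEAK sample. At 24 h the ratio was 4.36, 6.32 and 2.62 in vehicle, 8.94, 8.38 and 8.87 with TWEAK, and 5.57, 6.91 and 4.27 with the inhibitor, in the same arrangement. The exact two-sided permutation p was 0.1 for TWEAK against vehicle and for the inhibitor against TWEAK at both time points, the smallest value that 3 against 3 samples allow, so this design cannot reach 0.05. Between the inhibitor and vehicle it was 0.7 at 6 h and 0.5 at 24 h.

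**Figure D4:**
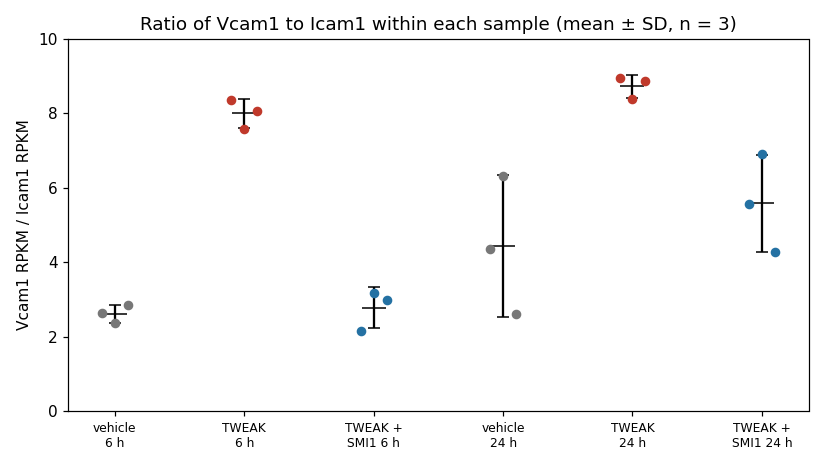
Ratio of Vcam1 RPKM to Icam1 RPKM within each sample on a linear axis from 0, with the mean and SD of 3 samples per group. The TWEAK groups (red) average 8 and 8.73, above every vehicle (grey) and inhibitor (blue) sample.

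By length-scaled level the order of the adhesion genes in vehicle at 6 h was F11r (158 ± 2.7 RPKM), Cd44 (113 ± 2.9), Cd47 (21.4 ± 0.92), Alcam (11.2 ± 0.26), Jam2 (4.81 ± 0.28), Vcam1 (1.15 ± 0.036) and Icam1 (0.443 ± 0.029), all as SD of 3 samples. No neighbours in this order came within their spread of each other. With TWEAK at 24 h the order was F11r (163 ± 0.81 RPKM), Cd44 (156 ± 1.9), Cd47 (46.3 ± 1.5), Vcam1 (40.1 ± 0.92), Icam1 (4.59 ± 0.056), Alcam (4.53 ± 0.17) and Jam2 (3.09 ± 0.10). Vcam1 thus moved from below Jam2 to a level close to that of Cd47, and Icam1 and Alcam did not differ beyond their spread. With the inhibitor at 24 h, Vcam1 stood at 5.67 ± 0.54 RPKM and Alcam at 5.06 ± 0.25 RPKM.

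**Figure D5:**
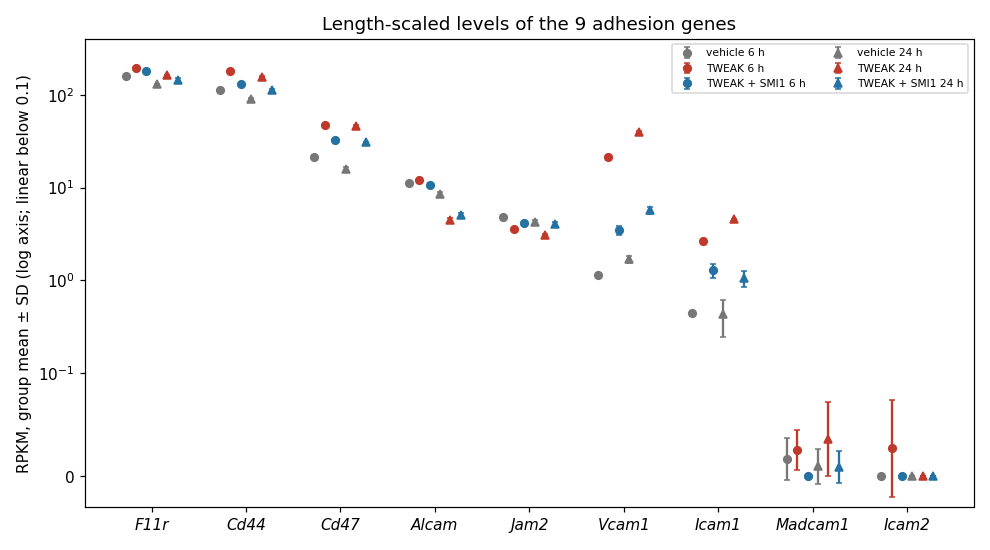
Mean RPKM with SD (n = 3) of the 9 adhesion genes in the 6 groups, on a logarithmic axis that is linear below 0.1, with circles for 6 h and triangles for 24 h. F11r and Cd44 are the highest in every group, Vcam1 spans 1.15 to 40.1 RPKM, and Icam2 and Madcam1 stay below 0.05 RPKM.

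Time in culture moved the adhesion genes as well. Between vehicle at 6 h and vehicle at 24 h, 5 of the 7 genes fell and 1 rose, beside 14.4% and 15.5% of tested genes. The balance over all tested genes, 2233 lower and 2407 higher, moved to 1260 lower and 3710 higher with total counts in place of TMM and to 1256 and 3463 with limma, while the counts of 5 and 1 held. The falls were -0.48 for Cd47 (adjusted p = 2.67e-10), -0.45 for Alcam (3.03e-08), -0.39 for Cd44 (9.65e-10), -0.35 for F11r (4.09e-10) and -0.22 for Jam2 (0.00592) on the log2 scale. Vcam1 rose by 0.51 (SE 0.11, adjusted p = 0.000685), while Icam1 did not pass the test (-0.09, 95% interval -0.56 to 0.38, adjusted p = 0.823). The 6 h and 24 h vehicle samples overlapped only for Icam1.

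Across the 18 samples, genes with a log2 CPM pattern close to that of Vcam1 included Ttc39c (Pearson r = 0.987) and Jdp2 (0.986). For Icam1 the nearest genes were Mycl (0.979), Fbxo32 (0.976) and Rab32 (0.974), and for Cd44 they were Rgs16 (0.985), Itgav (0.978) and Mapk6 (0.978). Genes close to Cd47 included Arhgef3 (0.991) and Abcb1a (0.989). F11r was nearest to Ccn1 (0.992) and Jam2 to Zdhhc13 (0.969). Among the adhesion genes themselves, Vcam1 correlated with Icam1 at 0.95, with Cd47 at 0.89 and with Jam2 at -0.91, and Cd44 with Cd47 at 0.94. These correlations describe 18 samples that fall into 6 treatment groups, so they largely restate the group differences.

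Other genes of leukocyte adhesion were read from 5 lists. Of 7 selectins and selectin ligands, 2 passed the read filter: Cd34, a mucin that can carry L-selectin ligands, rose with TWEAK by 1.70 at 6 h (adjusted p = 2.68e-14) and by 1.97 at 24 h (adjusted p = 2.06e-16) on the log2 scale, and Podxl fell (-0.18, adjusted p = 2.69e-05; -0.45, adjusted p = 1.6e-12). Cd34 stood at 5.62, 4.86 and 5.18 CPM in vehicle at 24 h, 21.2, 20.1 and 20.8 CPM with TWEAK, and 15.14, 15.96 and 15.54 CPM with the inhibitor. The endothelial selectin gene Sele did not exceed 0.149 CPM in any sample. Of 11 other immunoglobulin-superfamily genes, 7 passed the filter. Icam4, a further beta-2 integrin ligand, did so only through the samples with TWEAK alone, with 13, 31 and 22 reads at 6 h against 0, 6 and 1 in vehicle, and its test is not given. Of the other 6, 1 was higher and 3 were lower with TWEAK at both time points, beside 11.7% and 12.0% of tested genes at 6 h and 18.3% and 20.7% at 24 h. Pvr rose by 0.36 at 6 h (adjusted p = 1.68e-07). Mcam (-0.42, adjusted p = 8.37e-08), L1cam (-0.43, adjusted p = 3.13e-07) and Cd99l2 (-0.17, adjusted p = 0.000547) fell at 6 h.

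The leukocyte counter-receptors of these molecules were mostly missing from RPTEC, and 4 of 11 were tested. Itgal, the LFA-1 alpha chain, did not exceed 0.0436 CPM and Itga4, the alpha-4 integrin bound by Vcam1, did not exceed 0.113 CPM in any sample. Itgb1 fell at 6 h (-0.13, adjusted p = 0.00363), the 1 call of that list at 6 h, where 11.7% of tested genes were higher and 12.0% lower. At 24 h Itgb1 and Itgb2 fell and Sirpa rose (0.66, adjusted p = 0.0348), 1 higher and 2 lower beside 18.3% and 20.7% of tested genes. Of 6 ligands or ligand synthases of CD44 and CD47, 5 were tested, with 3 higher and 2 lower at 6 h, beside 11.7% and 12.0% of tested genes, and 2 higher and 2 lower at 24 h, beside 18.3% and 20.7%. The thrombospondin gene Thbs1 rose by 0.82 (adjusted p = 2.07e-14) and then 0.43 (adjusted p = 5.8e-09), and the hyaluronan synthase Has2 by 0.28 (adjusted p = 0.000691) and 0.42 (adjusted p = 7.57e-05). Has3 fell by 0.65 and 0.76 (adjusted p = 7.68e-10 and 1.23e-10), and osteopontin, Spp1, fell by 0.39 and 0.96 (adjusted p = 4.31e-09 and 4.41e-17).

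Among 8 cytoskeletal linkers and sheddases, all of which were tested, 4 were higher and 3 lower with TWEAK at 6 h, beside 11.7% and 12.0% of tested genes, and 5 were higher and 3 lower at 24 h, beside 18.3% and 20.7%. Mmp9, a gelatinase, rose from 1.83, 1.88 and 1.81 CPM in vehicle to 59.7, 59.3 and 59.9 CPM with TWEAK at 24 h and stood at 10.3, 11 and 10.8 CPM with the inhibitor (TWEAK log2 fold change 5.02, adjusted p = 1.2e-23). Adam17, which sheds VCAM-1 and other surface proteins, rose by 0.29 at 6 h (adjusted p = 5.03e-07) and 0.24 at 24 h (adjusted p = 7.01e-06). Adam8 rose by 0.71 at each time point (adjusted p = 8.78e-14 and 1.22e-13) and Msn, an actin linker of adhesion receptors, by 0.16 (adjusted p = 0.000248) and 0.32 (adjusted p = 1.89e-09). Its relatives Ezr and Rdx fell, by 0.41 (adjusted p = 2.66e-12) and 0.28 (adjusted p = 2.15e-05) at 24 h. With NIK SMI1 against TWEAK at 24 h, 5 of the 8 were lower and 2 higher, beside 8.29% and 10.2% of tested genes. Mmp9 changed by -2.48 (adjusted p = 2.96e-19) and Adam8 by -0.67 (adjusted p = 1.5e-12). With TWEAK at 24 h the median over the tested genes, in log2 fold change, was 0.18 in this list, -0.35 in the counter-receptors, -0.20 in the other immunoglobulin-superfamily genes without Icam4, 0.13 in the ligands of CD44 and CD47 and 0.76 in the selectin list, which rests on Cd34 and Podxl alone, beside -0.01 over all tested genes. The inhibitor's median effect at 24 h over the same lists was -0.13, 0.18, 0.13, -0.09 and -0.09, beside 0.01 over all tested genes.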

How the data were processed

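Total RNA was made into libraries with a kit that does not mark strand. The authors used HTSeqGenie, which runs the aligner GSNAP, on NCBI build 37 of the mouse genome. They deposited, for each sample, raw counts of uniquely aligned reads in exons per gene, not normalized, together with the exonic width and RPKM. The submitters' processing notes also name DESeq2, and no comparison made with it was used. Genes carry Entrez identifiers; 31049 of 36528 matched a symbol in RefSeq (GRCm38.p6), and gene positions are those of GENCODE M21 on GRCm38, not converted from the build of the files. Upstream windows are from RefSeq.

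Groups came from the labels for agent, TWEAK and time. The 9 genes and all lists were chosen with earlier results of these data known, by name: the 9 genes, 5 adhesion lists, 6 marker lists, and the 3 other genes nearest by Pearson r to each gene called at both time points. Some of these nearest genes are not reported here. Genes with more than 10 reads in at least 4 of the 18 samples (15521) were fitted with edgeR 4.0.16 (R 4.3.3), TMM factors and the quasi-likelihood test in 1 model of 6 groups, with Benjamini-Hochberg adjustment over all tested genes and a threshold of 0.05. All adjusted p-values are from this test unless limma is named. Fold changes are on the log2 scale. The share left is the CPM with NIK SMI1 minus the vehicle mean, over the TWEAK mean minus the vehicle mean. Ratios of RPKM were compared by exact permutation. Alternatives were DESeq2 1.42.0, its size factors in edgeR, total counts, no filter, filterByExpr, each time point alone, limma 3.58.1 on log2(RPKM + 0.1), and leaving out each sample. Samples of 1 group differed by more than sampling noise (chi-square per gene 2.19 to 9.95). The fit was run on simulated counts in which 100 well-read genes each were changed 2-fold and 4-fold with TWEAK at 24 h. All 100 were recovered at each fold, with 11 false calls among 15521 genes. Smaller changes and changes in genes with few reads were not simulated.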

Additional observations from a re-analysis of the deposited data

Results flagged for a closer look

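The effect of TWEAK at 24 h differed from that at 6 h, by a test of the difference itself in edgeR, for 3 adhesion genes. Over all tested genes, 3.24% had a higher and 5.67% a lower effect at 24 h. The log2 difference was -1.03 for Alcam, 0.37 for Cd47 and 0.81 for Icam1. The Icam1 call had an adjusted p of 0.0487 and was lost in 13 fits that left out 1 sample and with limma (adjusted p = 0.0771). The effect of NIK SMI1 also differed between the time points for Icam1, by -1.11 (adjusted p = 0.0591 with limma), and for Alcam, by 0.34. This was beside 1.62% of tested genes lower and 3.11% higher. For Alcam, the 3 TWEAK samples were above the 3 vehicle samples at 6 h and below them at 24 h. For Icam1, vehicle at 24 h rested on 13 to 48 reads per sample, and the part of this low depth in the difference was not tested.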

How the results depend on the processing

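Of the members' log2 fold changes under the alternatives, 1581 kept direction and side of the threshold, 24 fell short of the threshold, 9 passed it newly and 3 changed sign. The sign changes were of differences that missed the test: Cd44 in the inhibitor effect at 24 h minus 6 h (-0.02 without inhibitor sample 2 at 6 h, -0.01 without inhibitor sample 2 at 24 h, and up to 0.04) and Icam1 in vehicle over time (0.11 without vehicle sample 2 at 24 h, and down to -0.33). Counts of called genes stayed within 1.5 times in 436 cases and moved in 26. With the inhibitor against TWEAK, the count of higher genes ranged from 0 to 1 at 6 h and from 1 to 2 at 24 h when 1 sample was left out, and was 2 at 24 h with total counts and with limma, the added gene being Alcam. The inhibitor against vehicle gave 0 to 1 lower genes at 6 h. The TWEAK effect over time gave 1 to 2 higher genes when 1 sample was left out. Without a filter on low counts Vcam1 was added (adjusted p = 0.0468), and with limma Vcam1 passed and Icam1 did not. Without both TWEAK samples with islet RNA at 24 h, the Icam1 difference over time was 0.82. That alternative was chosen after seeing the data and rests on the spread of the other groups. With limma no gene (0) was lower in the inhibitor effect over time. On log2(CPM + 0.1) the shares left at 6 h were 37.7% (Vcam1), 58.3% (Icam1) and 54.0% (Cd47), and at 24 h 38.0%, 37.3% and 61.4%, with 41.2% for Cd44. Differences in the Vcam1 to Icam1 ratio kept their sign where the groups did not overlap, and moved by less than 1 SD where the groups overlapped. No paired analysis was possible because the labels give no replicate numbers. Depth limits Icam2 and Madcam1, which could not be tested, and Icam1 in vehicle.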
